A study of Mus musculus with 6 samples.

Results

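The genes described here encode subunits of the mitochondrial respiratory chain and of ATP synthase that are read from nuclear chromosomes. They were chosen by gene symbol, from the patterns Nduf with a subunit letter and number, Cox4 to Cox8 with a letter a to c, Uqcr and Atp5, leaving out pseudogene symbols with "-ps". The deposited table held 78 such genes among 48699, with 0 repeated symbols, so the provision to keep the row with the highest mean level was never needed. The grouping was proposed with results of the same livers in view, and the direction of the group as a whole is therefore a description. Of the 78 genes, 35 belong to complex I, 8 to complex III, 17 to complex IV and 15 to ATP synthase, and 3 carry such a symbol without being a fixed subunit. Cox4i1, Cox4i2, Ndufab1 and Cyc1, also respiratory chain components, are not matched by the patterns and stand in a separate list.

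Liver mRNA was sequenced from 3 male C57BL/6 mice with hepatocyte-specific loss of both Fxr and Shp (Fxr-/- Shp-/-) and from 3 male C57BL/6 control mice carrying the floxed alleles (Fxr fl/fl Shp fl/fl). All were 10 to 12 weeks old and had been fasted for 8 to 10 hours overnight, and the column names carry the word chow. Nr1h4 encodes FXR, a nuclear receptor that senses bile acids. Nr0b2, an FXR target gene, encodes the repressor SHP. No source used here names the recombinase, and cells of the liver other than hepatocytes keep the floxed alleles intact by design.

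Complex I oxidises NADH, complex III passes electrons from ubiquinol to cytochrome c, and complex IV reduces oxygen. All of them pump protons across the inner mitochondrial membrane, and ATP synthase uses the returning protons to make ATP. A minority of the subunits, including the most hydrophobic ones, are encoded by mitochondrial DNA, and the remainder are nuclear genes whose products are imported. In liver the nuclear subunit genes are highly expressed housekeeping genes, and NRF1, GABP, ERR alpha and YY1 are among the factors known to bind their promoters.

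The deleted genes matched the labels. Nr0b2 was listed at 0.216, 0.0734 and 0.293 FPKM in the knockout livers and at 14.7, 17.6 and 18.7 FPKM in the control livers. FPKM counts fragments per kilobase and per 1e6 mapped fragments, so it is a level per length. Nr1h4 stood at 21.1, 15.5 and 22.04 FPKM in the knockout livers, against 59.8, 71.8 and 67.97 FPKM in the control livers. The steps between the lowest FPKM values correspond to library totals between 13.2 and 14.1, in units of 1e6 fragments, and the libraries' FPKM values summed to between 610618 and 697877 in the knockout livers and between 702759 and 841745 in the control livers. At that depth the median subunit gene rests on about 1796 fragments per library, and 4 genes rest on fewer than 100. All 8 hepatocyte markers stood above 100 FPKM in every library.

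RefSeq promoters were matched by symbol for 63 of the 78 genes, as windows of 250 bases before to 50 bases after the transcription start on GRCm38.p6. The 250 bases before the start are shown for the 3 genes of ATP synthase subunit c, which encode the same mature protein, for Ndufb6 and Uqcrfs1, which had the lowest fold change of complex I and the lowest adjusted p of the tested subunit genes, and for Atp5l and Cox6a1, in which several motif kinds fall in the printed stretch. Capitals mark matches, on either strand, to GCGCATGC (NRF1), CCGGAAG (GABP), AAGGTCA (ERR alpha) or ATGGCGG (YY1). GCGCATGC overlaps its own reverse complement GCATGCGC in the run GCGCATGCGC, which is then capitalised whole. Each sequence reads 5′ to 3′ on the minus strand, ending at the base before the start.
Atp5g1: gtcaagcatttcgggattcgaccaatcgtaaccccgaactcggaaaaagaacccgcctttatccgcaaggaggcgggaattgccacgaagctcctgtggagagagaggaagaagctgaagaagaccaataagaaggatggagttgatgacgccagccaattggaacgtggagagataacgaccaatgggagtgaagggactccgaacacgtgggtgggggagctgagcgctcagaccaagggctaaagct
Atp5g2: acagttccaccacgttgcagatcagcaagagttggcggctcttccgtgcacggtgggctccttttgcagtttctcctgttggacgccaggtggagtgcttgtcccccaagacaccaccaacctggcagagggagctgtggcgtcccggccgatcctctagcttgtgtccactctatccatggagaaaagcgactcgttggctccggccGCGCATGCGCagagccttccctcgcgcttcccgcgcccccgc
Atp5g3: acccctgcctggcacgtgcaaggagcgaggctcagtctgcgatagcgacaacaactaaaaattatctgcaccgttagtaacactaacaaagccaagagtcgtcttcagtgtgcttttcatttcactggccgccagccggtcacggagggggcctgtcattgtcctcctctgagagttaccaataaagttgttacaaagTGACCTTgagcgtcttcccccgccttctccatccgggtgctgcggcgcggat
Ndufb6: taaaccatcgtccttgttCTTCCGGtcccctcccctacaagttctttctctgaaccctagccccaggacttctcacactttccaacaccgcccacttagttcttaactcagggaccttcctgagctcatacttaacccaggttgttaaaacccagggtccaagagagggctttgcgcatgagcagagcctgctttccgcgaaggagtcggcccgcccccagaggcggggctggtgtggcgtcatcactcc
Uqcrfs1: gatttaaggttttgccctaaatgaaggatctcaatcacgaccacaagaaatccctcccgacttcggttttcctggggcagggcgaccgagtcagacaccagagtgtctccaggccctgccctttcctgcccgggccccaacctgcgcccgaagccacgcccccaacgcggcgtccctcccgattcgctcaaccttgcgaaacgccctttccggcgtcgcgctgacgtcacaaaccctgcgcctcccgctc
Atp5l: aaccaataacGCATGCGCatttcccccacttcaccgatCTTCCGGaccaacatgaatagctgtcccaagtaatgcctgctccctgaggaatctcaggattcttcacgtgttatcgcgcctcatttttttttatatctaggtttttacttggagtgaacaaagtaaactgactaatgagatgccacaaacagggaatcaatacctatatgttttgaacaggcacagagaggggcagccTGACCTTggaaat
Cox6a1: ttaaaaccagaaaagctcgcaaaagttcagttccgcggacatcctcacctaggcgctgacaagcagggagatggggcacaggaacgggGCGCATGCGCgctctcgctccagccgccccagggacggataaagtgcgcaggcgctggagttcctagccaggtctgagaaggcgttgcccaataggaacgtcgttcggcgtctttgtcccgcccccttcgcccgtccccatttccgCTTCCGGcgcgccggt
These sequences lie at chr11:96075632-96075881 (Atp5g1), chr15:102671048-102671297 (Atp5g2), chr2:73911327-73911576 (Atp5g3), chr4:40279422-40279671 (Ndufb6), chr13:30545317-30545566 (Uqcrfs1), chr9:44920743-44920992 (Atp5l) and chr5:115348959-115349208 (Cox6a1). The stretches of Atp5g1 and Uqcrfs1 hold none of the 4 motifs, that of Atp5g2 holds the NRF1 motif and that of Atp5g3 the ERR alpha motif.

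Over the whole 300-base windows, the NRF1 motif was found in 9 of the 63 subunit genes (14.29%), against 6.178% of 8822 tested genes with a promoter and 3.049% of all 27025 genes in the promoter table. The GABP motif was found in 14 (22.22%), against 20.63% of the tested genes and 9.928% of all genes. The ERR alpha motif was found in 7 (11.11%), against 4.375% of the tested genes and 5.38% of all genes. The YY1 motif was found in 10 (15.87%), against 9.862% of the tested genes and 4.692% of all genes. At least 1 of the 4 stood in 32 of the subunit genes (50.79%), against 35.31% of the tested genes. These matches describe letters in a fixed window and say nothing of binding in these livers.

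The comparison of knockout with control livers asks how the transcripts of the respiratory chain differ when hepatocytes lack both receptors. Of the 78 genes, 74 had a mean of at least 0.5 FPKM and were tested. Fold changes are knockout minus control differences on the log2(FPKM + 1) scale from limma, with Benjamini-Hochberg adjustment over all 11810 tested genes and a threshold of 0.05. Mean levels of nearly all subunits were lower in the knockout livers: 71 of the 74 fold changes (95.9%) were below 0, against 50.8% of all tested genes, with a median of -0.49 against -0.01 over all tested genes. Most subunit transcripts are short, and short abundant transcripts outside the set also lay mostly below 0. With a mean of at least 20 FPKM, the share was 81.4% under 600 bases, 85.4% at 600 to 1000 bases and 74.3% at 1000 to 2000 bases. None of the 74 passed the threshold in either direction, whereas 0.144% of all tested genes were called lower and 0.169% higher. The lowest adjusted p was 0.184, for Uqcrfs1. At an unadjusted p under 0.05, 33 of the 74 genes (44.6%) were lower and 0 higher, against 7.98% of all tested genes called lower by that rule. That count depended on the scaling: it was 15 with the libraries rescaled to equal FPKM sums (2.77% of all tested genes), 21 after quantile normalization (7.35%) and 13 after removal of a trend on transcript length and GC content (5.87%). With 1 liver left out, it ran from 5 without the second knockout liver (4.31%) to 53 without the first control liver (8.62%). Without the third control liver it was 8 of the 74, against 11.9% of all tested genes. Every knockout liver lay below every control liver in 29 of the 74 (39.2%), against 11.6% of all tested genes, and in 0 did every knockout liver lie above. In the same length classes of other genes of at least 20 FPKM, the share separated downward was 24.0%, 34.5% and 25.1%. With 3 mice a group, the smallest exact permutation p (two-sided) is 0.1.

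Leaving out the 7 paralogs of restricted tissue expression and the 3 genes that are not fixed subunits, 68 genes encode the structural subunits of the liver forms. Their mean levels over the 6 libraries ran from 17.8 FPKM for Ndufa11 to 853 FPKM for Atp5b. In all 68 the knockout mean was below the control mean, from 51.7% of it for Ndufb6 to 94.4% for Ndufs5, with a median of 68.7%, although 5 of the 68 fold changes were above 0 when the libraries were rescaled to equal FPKM sums, 4 after quantile normalization and 4 after removal of a trend on transcript length and GC content. The libraries did not separate cleanly by group. The second knockout liver was the lowest of the 6 in 67 of the 68 genes, and the third control liver was the highest in 58. All 3 knockout livers lay below both the second and the third control livers in 63 genes, but the third knockout liver lay above the first control liver in 36, the first knockout liver did so in 9 and the second in 1. In whole liver RNA, fewer hepatocytes and less RNA per hepatocyte cannot be told apart.

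**Figure D1:**
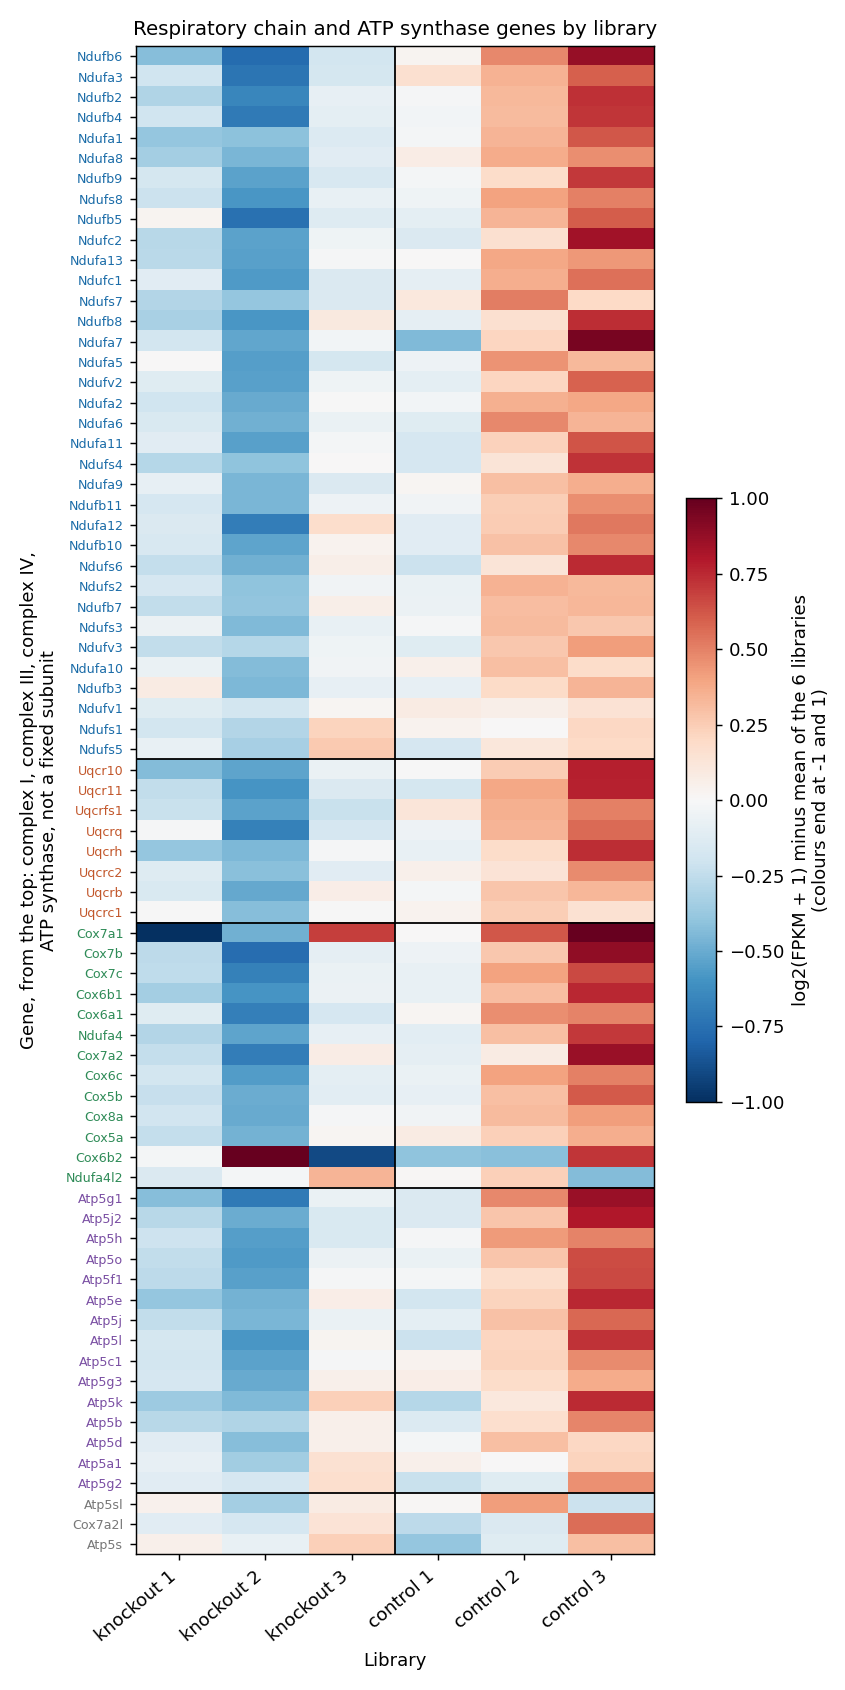
Level of each tested gene in each library (knockout libraries left, control libraries right), as log2(FPKM + 1) minus the gene's mean over the 6 libraries; rows run by complex and, within a complex, from the lowest to the highest fold change, and colours end at -1 and 1. The column of the second knockout liver is the bluest, being the lowest library in 68 of the 74 genes, and that of the third control liver the reddest, being the highest in 61.

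Complex I had all 35 of its genes tested, and all 35 fold changes were below 0, with a median of -0.47, apart from Ndufs1, Ndufs5 and Ndufv1 under other scalings given below. The 7 core subunits, which carry the flavin and the iron-sulfur clusters, had a median of -0.40, and the 28 supernumerary subunits, which surround the core, had a median of -0.47. By the unadjusted rule 14 of the 35 were lower, against 7.98% of all tested genes. In 16 every knockout liver lay below every control liver, against 11.6% of all tested genes. Ndufb6, a supernumerary subunit of the membrane arm, had the lowest fold change of the complex. Its level was 91.7, 72.2 and 109 FPKM in the knockout livers, against 126, 174 and 228 FPKM in the control livers, so that the groups did not overlap. The means were 90.9 ± 18.4 FPKM in the knockout livers and 176 ± 50.8 FPKM in the control livers (SD, n = 3), the log2 fold change was -0.92 (SE 0.25), and limma's adjusted p was 0.193. Ndufb6 spans about chr4:40270600-40279400, with both ends rounded, on the minus strand of GRCm38.

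Ndufa3 and Ndufb2, likewise supernumerary subunits of the membrane arm, came next. Ndufa3 stood at 157, 109 and 160.5 FPKM in the knockout livers, against 202, 230.3 and 275 FPKM in the control livers, a log2 fold change of -0.74 (adjusted p 0.200 by limma, SE 0.21). Ndufb2 stood at 149, 117 and 174 FPKM in the knockout livers, against 184, 232 and 307 FPKM in the control livers, a log2 fold change of -0.70 (adjusted p 0.262 by limma, SE 0.24). In both genes the highest knockout liver lay below the lowest control liver. At the other end, the groups overlapped for Ndufs5, a subunit of the intermembrane space side, with 139, 115 and 175 FPKM in the knockout livers, against 129, 158 and 167 FPKM in the control livers, and a log2 fold change of -0.09 (SE 0.20) that was above 0 under rescaling, quantile normalization and removal of the length and GC trend. Ndufs1, the largest core subunit and holder of several iron-sulfur clusters, stood at 42.8, 39.7 and 57.1 FPKM in the knockout livers, against 50.1, 48.8 and 56.3 FPKM in the control livers, and the third knockout liver was the highest of the 6. Its log2 fold change was -0.16 (SE 0.17), and above 0 under rescaling and, by less than 0.001, under removal of the length and GC trend. Ndufv1, which binds NADH and the flavin, stood at 94.3, 89.96 and 103 FPKM in the knockout livers, against 108, 107 and 113 FPKM in the control livers. Those groups did not overlap, but the log2 fold change was only -0.19 (SE 0.14, limma adjusted p 0.533), and it was above 0 under rescaling and quantile normalization.

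The most abundant transcripts of complex I were Ndufb9, Ndufa6, Ndufa7 and Ndufa1, all supernumerary. Ndufb9 stood at 372, 290.0 and 376 FPKM in the knockout livers, against 416, 478 and 688 FPKM in the control livers, with no overlap and a log2 fold change of -0.58 (adjusted p 0.312 by limma, SE 0.23). Ndufa1 stood at 163, 161 and 195 FPKM in the knockout livers, against 211, 271 and 329 FPKM in the control livers, also with no overlap and with a log2 fold change of -0.63 (adjusted p 0.240 by limma, SE 0.20). Overlap was present in the other 2. Ndufa6 had 268, 214 and 286 FPKM in the knockout livers, against 274, 417 and 378 FPKM in the control livers (log2 fold change -0.46), and the third knockout liver lay above the first control liver. Ndufa7 had 195, 154 and 218 FPKM in the knockout livers, against 163, 258 and 429 FPKM in the control livers (log2 fold change -0.49), and the first control liver lay below the first and the third knockout livers.

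Complex III, whose nuclear genes are 1 catalytic subunit, 2 core proteins and 5 small subunits under these patterns, had all 8 fold changes below 0, with a median of -0.57. By the unadjusted rule 4 of the 8 were lower, against 7.98% of all tested genes. In 4 every knockout liver lay below every control liver, against 11.6% of all tested genes. Uqcrfs1, the Rieske iron-sulfur protein that takes electrons from ubiquinol, stood at 159.6, 128 and 159 FPKM in the knockout livers, against 203, 238 and 265 FPKM in the control livers. The highest knockout liver lay under the lowest control liver. The means were 149 ± 18.01 FPKM in the knockout livers and 235 ± 30.8 FPKM in the control livers (SD, n = 3), the log2 fold change was -0.65 (SE 0.17), and limma's adjusted p of 0.184 was the lowest of the 74. Across the alternative settings the fold change of Uqcrfs1 stayed between -0.76 and -0.40 and its adjusted p between 0.0580 and 0.504. The gene spans about chr13:30540300-30545400, with both ends rounded, on the minus strand of GRCm38.

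The core proteins Uqcrc1 and Uqcrc2, relatives of the mitochondrial processing peptidase, were separated between the groups, Uqcrc1 by a narrow margin. Uqcrc1 stood at 157, 117 and 156 FPKM in the knockout livers, against 161, 186 and 175 FPKM in the control livers (log2 fold change -0.29, SE 0.17). Uqcrc2 stood at 139, 113 and 140.4 FPKM in the knockout livers, against 157, 166 and 211 FPKM in the control livers (log2 fold change -0.44, SE 0.18). Of the small subunits, Uqcr10 was the one without overlap, with 272, 254 and 351 FPKM in the knockout livers, against 366, 436 and 629.9 FPKM in the control livers, and it had the lowest fold change of the complex at -0.68 (SE 0.24, limma adjusted p 0.274). Uqcr11 had 367, 289 and 395 FPKM in the knockout livers, against 386, 570.3 and 746 FPKM in the control livers (log2 fold change -0.66). Uqcrq, the most abundant transcript of the complex, had 746, 469 and 669 FPKM in the knockout livers, against 726, 950.0 and 1112 FPKM in the control livers (log2 fold change -0.57). In both, 1 knockout liver stood above the first control liver. Uqcrh, the hinge protein at cytochrome c1, had 379, 363 and 493 FPKM in the knockout livers, against 469.8, 564 and 827 FPKM in the control livers (log2 fold change -0.56). Uqcrb, at the ubiquinone site, had 417, 324 and 485 FPKM in the knockout livers, against 457, 562 and 584 FPKM in the control livers (log2 fold change -0.40).

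Complex IV divides into 10 subunits of the liver form, among them Ndufa4, which was first assigned to complex I, and 7 paralogs of restricted expression. The 10 liver subunits were all lower in mean level in the knockout livers, with a median log2 fold change of -0.59 and a range from -0.74 to -0.46. By the unadjusted rule 8 of the 10 were lower, against 7.98% of all tested genes. In 5 every knockout liver lay below every control liver, against 11.6% of all tested genes. Cox7b, a small membrane subunit, had the lowest of these fold changes. Its level was 167, 118 and 188 FPKM in the knockout livers, against 194, 242 and 372 FPKM in the control livers, with means of 158 ± 36.2 FPKM in the knockout livers and 269 ± 92.3 FPKM in the control livers (SD, n = 3), a log2 fold change of -0.74 (SE 0.28) and a limma adjusted p of 0.298. Cox6a1, the liver isoform of subunit 6a, had 539, 363 and 519 FPKM in the knockout livers, against 592, 808 and 824 FPKM in the control livers (log2 fold change -0.65, SE 0.23, limma adjusted p 0.272). Cox5a had 326, 277 and 389.7 FPKM in the knockout livers, against 407, 454 and 495 FPKM in the control livers (log2 fold change -0.46, SE 0.19). In all of these the highest knockout liver lay under the lowest control liver, by a small margin.

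The most abundant complex IV transcripts were Ndufa4, Cox6c, Cox6a1 and Cox8a. Ndufa4 had 630.3, 535 and 731 FPKM in the knockout livers, against 716, 949 and 1260.0 FPKM in the control livers (log2 fold change -0.60), and the third knockout liver lay above the first control liver. Cox6c had 598, 461 and 635 FPKM in the knockout livers, against 651, 901 and 964 FPKM in the control livers (log2 fold change -0.56), without overlap. Cox8a had 517, 417 and 586 FPKM in the knockout livers, against 575, 735 and 790.0 FPKM in the control livers (log2 fold change -0.47). Cox7c, another small membrane subunit, had 357, 267 and 408 FPKM in the knockout livers, against 405, 563 and 675 FPKM in the control livers (log2 fold change -0.66). In Cox8a and Cox7c the third knockout liver stood just above the first control liver.

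The restricted paralogs were near the floor of the measurement. Cox8c and Cox7b2 were listed at 0 in all 6 libraries, Cox6a2, a heart and muscle isoform, at 0.146 FPKM in the first knockout liver and 0 elsewhere, and Cox8b at 0.508 FPKM in the second control liver and 0 elsewhere, so these 4 were not tested. Just inside the filter, Cox6b2 had 0.845, 2.798 and 0 FPKM in the knockout livers, against 0.415, 0.394 and 2.06 FPKM in the control livers, on about 6.99 fragments per library. Ndufa4l2 had 1.34, 1.55 and 2.28 FPKM in the knockout livers, against 1.604, 2.06 and 0.915 FPKM in the control livers. These groups overlapped fully, and the fold changes of 0.07 (SE 0.51) and 0.12 (SE 0.23) changed sign in other settings, Cox6b2 under quantile normalization among them. Cox7a1, the heart and muscle isoform of subunit 7a, had 0, 1.77 and 5.22 FPKM in the knockout livers, against 2.88, 4.95 and 7.34 FPKM in the control livers. Its log2 fold change of -1.16 was the lowest of the 74 and had the largest standard error, 0.62 (limma adjusted p 0.421).

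ATP synthase had all 15 genes tested and all 15 fold changes below 0, with a median of -0.49, apart from Atp5a1, Atp5g2 and Atp5k under other scalings given below. By the unadjusted rule 7 of the 15 were lower, against 7.98% of all tested genes. In 4 every knockout liver lay below every control liver, against 11.6% of all tested genes. Other genes of at least 20 FPKM were separated in this way in 24.0% under 600 bases, 34.5% at 600 to 1000 bases and 25.1% at 1000 to 2000 bases. The 4 peripheral stalk subunits, which hold the catalytic head still, had a median log2 fold change of -0.56 and ran from -0.61 to -0.51, and all 4 met the unadjusted rule. The 3 central stalk subunits, which turn with the ring, had a median of -0.49, the 3 small membrane subunits -0.49, the 3 genes of the c ring -0.41 and the 2 subunits of the catalytic head -0.27. These medians rest on 2 to 4 genes each, and differences between them were not tested. Atp5b, the catalytic beta subunit and the most abundant of all the transcripts, had 691, 678 and 869 FPKM in the knockout livers, against 763, 941 and 1175 FPKM in the control livers (log2 fold change -0.35, SE 0.22). Atp5a1, the alpha subunit, had 390.2, 325 and 459.7 FPKM in the knockout livers, against 429.9, 416 and 483 FPKM in the control livers, with overlap and a log2 fold change of -0.19 (SE 0.19) that was above 0 under rescaling and quantile normalization. Atp5h, subunit d of the peripheral stalk, had 349.8, 276 and 365 FPKM in the knockout livers, against 401, 543 and 571 FPKM in the control livers, with no overlap (log2 fold change -0.61, SE 0.21, limma adjusted p 0.260).

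Of the central stalk, Atp5e, the epsilon subunit, had 461, 435 and 632 FPKM in the knockout livers, against 531, 704 and 1018 FPKM in the control livers (log2 fold change -0.53), and Atp5d, the delta subunit, had 281, 226 and 315 FPKM in the knockout livers, against 300.2, 375 and 351 FPKM in the control livers (log2 fold change -0.33). Both overlapped through the third knockout and first control livers. Among the small membrane subunits, Atp5j2 had 155, 133 and 169 FPKM in the knockout livers, against 170.0, 228 and 329 FPKM in the control livers, barely separated (log2 fold change -0.62, SE 0.25). Atp5k had 383, 362 and 581 FPKM in the knockout livers, against 404, 531 and 826 FPKM in the control livers, with overlap and a log2 fold change of -0.38 (SE 0.31) that was 0.01 after removal of the length and GC trend.

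**Figure D2:**
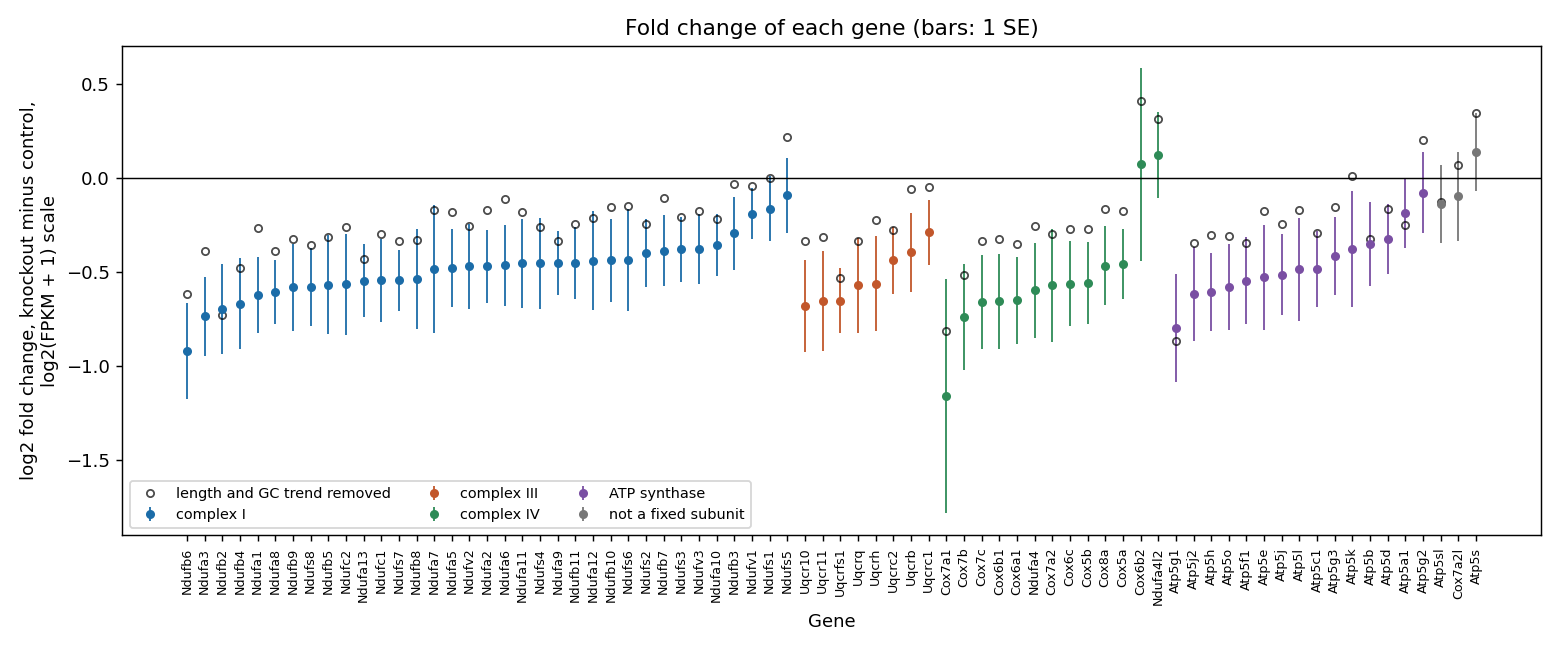
Log2 fold change, knockout minus control, of each of the 74 tested genes (filled points, with bars of 1 SE) by complex, and the same after removal of the trend on transcript length and GC content (open circles). Filled points of complexes I and III and ATP synthase all lie below 0, complex III with a median of -0.57, and open circles lie mostly nearer to 0, 4 structural subunits being above it, as were 5 with libraries rescaled to equal sums.

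The 3 genes of subunit c differed in level and in fold change. They encode different import sequences before the same mature protein, of which several copies make up the ring in the membrane. Atp5g1 had 193, 158 and 247 FPKM in the knockout livers, against 235, 362 and 471 FPKM in the control livers, with means of 199 ± 44.7 FPKM in the knockout livers and 356 ± 118 FPKM in the control livers (SD, n = 3), a log2 fold change of -0.80 (SE 0.29) and a limma adjusted p of 0.276. The third knockout liver lay above the first control liver. Atp5g3, the most abundant of the 3, had 688, 543 and 797 FPKM in the knockout livers, against 807, 877 and 999 FPKM in the control livers, with means of 676 ± 127 FPKM in the knockout livers and 894 ± 96.97 FPKM in the control livers (SD, n = 3) and no overlap (log2 fold change -0.41, SE 0.21, limma adjusted p 0.392). Atp5g2 had 94.6, 90.8 and 115 FPKM in the knockout livers, against 87.8, 94.2 and 141 FPKM in the control livers, with means of 100.1 ± 12.95 FPKM in the knockout livers and 108 ± 29.1 FPKM in the control livers (SD, n = 3) and full overlap. Its log2 fold change of -0.08 (SE 0.21) was above 0 under rescaling, quantile normalization and removal of the length and GC trend. As a share of the summed FPKM of the 3 genes, which a common scaling factor leaves unchanged, Atp5g1 made up 19.8%, 19.97% and 21.3% in the knockout livers, against 20.8%, 27.2% and 29.3% in the control livers, with overlap. Atp5g2 made up 9.70%, 11.5% and 9.91% in the knockout livers, against 7.77%, 7.07% and 8.75% in the control livers, without overlap. Atp5g3 made up 70.5%, 68.6% and 68.8% in the knockout livers, against 71.4%, 65.8% and 62.0% in the control livers, with overlap. Reads of these genes can also match processed pseudogenes. In these families 6 rows with a "-ps" symbol were listed, and none reached a mean of 0.5 FPKM. Pseudogenes under other kinds of symbol were not counted, and no source used here says how reads with several matches were treated.

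**Figure D3:**
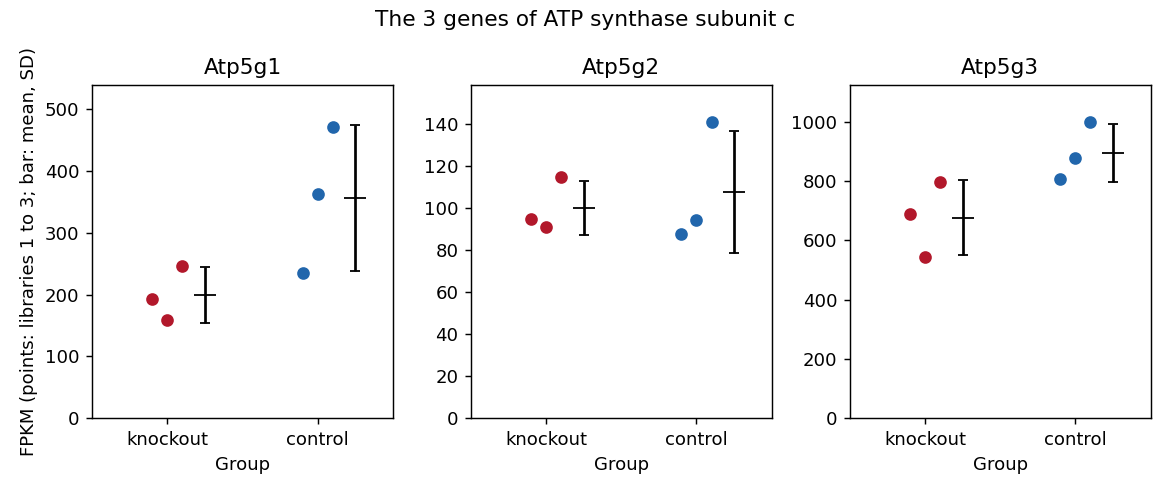
FPKM of Atp5g1, Atp5g2 and Atp5g3, which encode the same mature subunit c, in knockout livers (left in each panel) and control livers (right), with points for libraries 1 to 3 in order and bars for the mean and SD of n = 3. Atp5g3 is separated between the groups (543 to 797 FPKM in knockout livers, 807 to 999 FPKM in control livers), and Atp5g2 overlaps fully.

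The 3 genes that are not fixed subunits, described although the naming rule does not single them out, had log2 fold changes between -0.14 and 0.14. The structural subunits Ndufs5 (-0.09) and Atp5g2 (-0.08) also lay in that range. Cox7a2l, a factor of supercomplexes of the chain, had 93.7, 90.4 and 112 FPKM in the knockout livers, against 84.4, 91.8 and 150.2 FPKM in the control livers (log2 fold change -0.10, SE 0.24). Atp5sl had 22.9, 17.4 and 23.6 FPKM in the knockout livers, against 22.4, 30.1 and 18.99 FPKM in the control livers (log2 fold change -0.14, SE 0.21), and Atp5s had 4.65, 4.18 and 5.43 FPKM in the knockout livers, against 3.18, 4.01 and 5.72 FPKM in the control livers (log2 fold change 0.14, SE 0.21). All 3 overlapped between the groups, and their difference from the subunits was not tested.

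The authors' deposited table, in the column layout of Cuffdiff, called 4 of the 74 genes lower (5.41%) and 0 higher, against 1.72% of its 11689 tested genes among those examined here called lower. In the authors' deposited table Atp5g1 stood at 199 FPKM in knockout livers and 356 FPKM in control livers, with a q-value of 0.0236. Cox7b stood there at 158 FPKM in knockout livers and 269 FPKM in control livers (authors' deposited table, q-value 0.0324). Ndufb6 stood at 90.9 FPKM in knockout livers and 176 FPKM in control livers (authors' deposited table, q-value 0.0329), and Uqcr10 at 292 FPKM in knockout livers and 477 FPKM in control livers (authors' deposited table, q-value 0.0341). Each of the 4 complexes thus had 1 gene called there. None of these 4 passed limma's threshold on the values per library.

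The library order was nearly the same in every complex. As the median deviation from the control mean on the log2(FPKM + 1) scale, complex I stood at -0.42, -0.75 and -0.28 in the knockout livers, against -0.31, 0.04 and 0.23 in the control livers. Complex III stood at -0.45, -0.80 and -0.37 in the knockout livers, against -0.28, 0.04 and 0.27 in the control livers. Complex IV stood at -0.51, -0.84 and -0.38 in the knockout livers, against -0.36, 0.02 and 0.34 in the control livers, and ATP synthase at -0.50, -0.74 and -0.21 in the knockout livers, against -0.32, -0.02 and 0.37 in the control livers. In complexes III and IV the knockout livers were all under the first control liver, and in complex I and ATP synthase the third knockout liver was above it. The spread within a group was thus large beside the difference between groups: the median over all 74 genes was -0.49, but -0.34 without the second knockout liver, -0.35 without the third control liver and -0.66 without the first control liver. At an unadjusted p under 0.05, 33 of the 74 genes were lower with all libraries, against 7.98% of all tested genes. Without the first control liver 53 were lower (8.62% of all tested genes), and without the first knockout liver 14 (6.21%). The count was 5 without the second knockout liver (4.31%) and 8 without the second control liver (4.53%). Without the third control liver it was also 8 of the 74, against 11.9% of all tested genes.

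**Figure D4:**
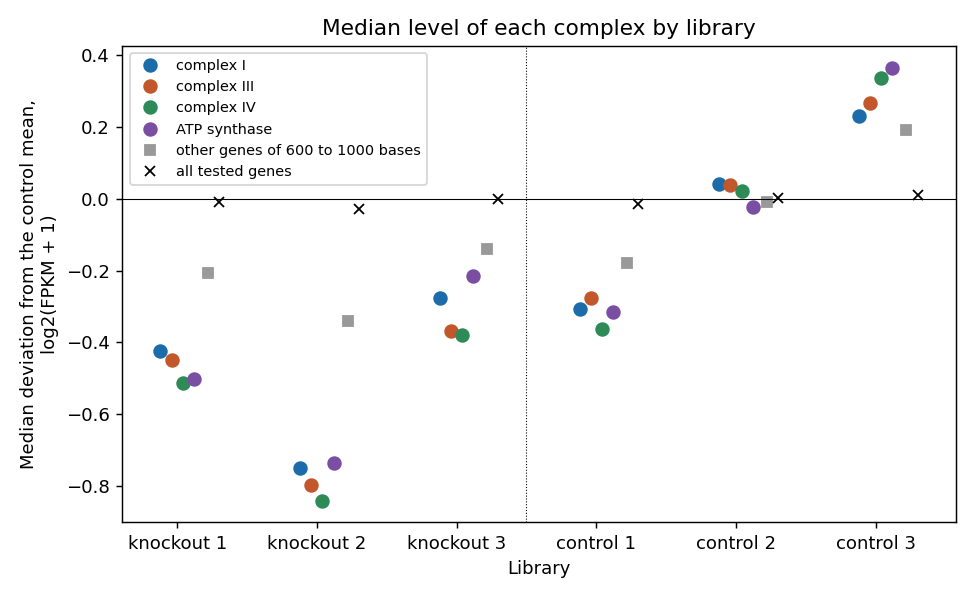
Median deviation from the control mean, on the log2(FPKM + 1) scale, of the genes of each complex in each library (knockout libraries left of the dotted line), with all tested genes (crosses) and other genes of 600 to 1000 bases (squares). The complexes follow each other from library to library, at -0.74 to -0.84 in the second knockout liver and 0.23 to 0.37 in the third control liver, and the other short genes run in a similar order over a narrower range.

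Most subunit transcripts are short, with a median annotated length of 711 bases against 2033 bases for all tested genes, and other short transcripts differed between the groups in the same direction. Among genes outside the set, the median log2 fold change was -0.29 for 496 genes under 600 bases, -0.23 for 1262 genes of 600 to 1000 bases, -0.10 for 3952 genes of 1000 to 2000 bases, 0.05 for 4287 genes of 2000 to 4000 bases and 0.18 for 1720 genes over 4000 bases. With the level also held to a mean of at least 20 FPKM, it was -0.40 for 129 genes under 600 bases, -0.32 for 534 genes of 600 to 1000 bases, -0.19 for 1263 genes of 1000 to 2000 bases and -0.03 for 766 genes of 2000 to 4000 bases. The subunit genes had medians of -0.56 under 600 bases (24 genes) and -0.49 at 600 to 1000 bases (30 genes). Their medians were -0.40 at 1000 to 2000 bases (17 genes) and -0.70 at 2000 to 4000 bases (3 genes). Those 3 genes were Atp5g1 (-0.80), Ndufb2 (-0.70) and Atp5a1 (-0.19). Length is an unweighted mean over annotated protein-coding transcripts, and the transcripts used in these livers may be shorter or longer. It is 2665.5 bases for Atp5g1 and 718.5 bases for Atp5g3, which encodes the same mature protein. Separation was also counted in the 3 classes under 2000 bases, as every knockout liver below every control liver. It was found in 24.0%, 34.5% and 25.1% of the other genes of at least 20 FPKM. Among the subunit genes of the same classes, without the level limit, it was found in 25%, 43.3% and 52.9%. Other genes of 600 to 1000 bases stood at -0.21, -0.34 and -0.14 in the knockout livers, against -0.18, -0.01 and 0.19 in the control livers, against -0.44, -0.75 and -0.28 in the knockout livers and -0.32, 0.02 and 0.29 in the control livers for all 74 subunit genes, which is the same order of libraries. With a smooth trend on length and GC content removed from each library, the median of the 74 genes was -0.26, 66 of the 74 fold changes were below 0, and the medians by library were -0.21, -0.39 and -0.13 in the knockout livers, against -0.12, 0.05 and 0.09 in the control livers.

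**Figure D5:**
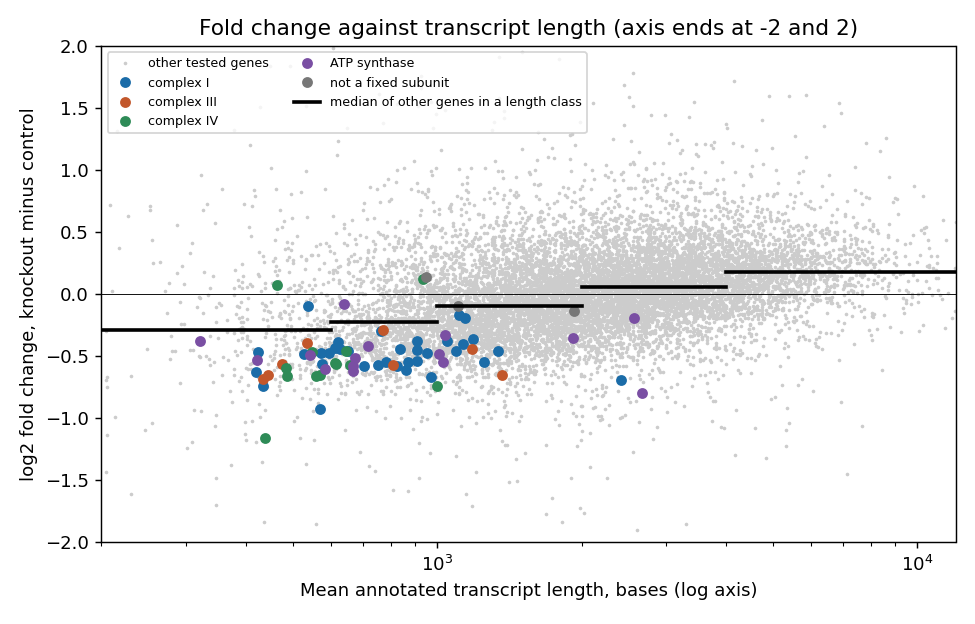
Log2 fold change, knockout minus control, against mean annotated transcript length (log axis) for the 74 genes by complex (coloured points) and all other tested genes (grey), with the median of the other genes in each length class (black lines); the vertical axis ends at -2 and 2. The black lines climb from -0.29 under 600 bases to 0.18 over 4000 bases, and most coloured points lie below the line of their class.

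Other genes of the same organelle were compared from lists chosen by function. Over all tested genes, 7.98% were lower by the unadjusted rule. Complex II, which feeds electrons from succinate and is wholly nuclear, had 4 genes tested and 0 called. By the unadjusted rule 1 was lower, and the median log2 fold change was -0.42. The gene lower by that rule was Sdhc (log2 fold change -0.50), and Sdha went the other way (0.07). Both were named after their values were seen. Sdhb stood at 203, 146 and 218 FPKM in the knockout livers, against 218, 262 and 279 FPKM in the control livers (log2 fold change -0.43), and Sdhd at 147, 136 and 208 FPKM in the knockout livers, against 172, 179 and 312 FPKM in the control livers (log2 fold change -0.40). Of components that the symbol patterns miss, 7 were tested with 0 called, 5 lower by the unadjusted rule and a median of -0.61. Cox4i1, the large nuclear subunit of complex IV, stood at 512, 420.1 and 506 FPKM in the knockout livers, against 563, 755 and 918 FPKM in the control livers (log2 fold change -0.61), with no overlap, and 2010107E04Rik, a small ATP synthase subunit, at 309, 271 and 465 FPKM in the knockout livers, against 369, 500.4 and 840.4 FPKM in the control livers (log2 fold change -0.66).

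Subunits encoded by mitochondrial DNA did not follow the library order of the nuclear ones. Their summed level was 51178, 40210 and 49872 FPKM in the knockout livers, against 66443, 63098 and 40673 FPKM in the control livers, so the third control liver, the highest in most nuclear subunits, was next to the lowest here. The median log2 fold change of the 13 was -0.34, with 11 below 0. Of the 13, 1 was called lower, mt-Nd3, at 1.08, 0 and 0.588 FPKM in the knockout livers, against 4.33, 7.19 and 5.43 FPKM in the control livers (log2 fold change -2.14, SE 0.29, limma adjusted p 0.0453). Values of a few FPKM, also listed for mt-Co2, mt-Co3, mt-Atp6, mt-Atp8 and mt-Nd4l beside far higher values for mt-Nd1 and mt-Cytb, are low for transcripts of 1 genome, so that mt-Nd3 is uncertain. Its call was also lost without any 1 of the libraries other than the third control liver, at adjusted p-values between 0.116 and 0.200, and with all libraries at 0.0766 with the length and GC trend removed, 0.146 with pseudocount 0.1, 0.133 with no filter on low values, 0.0552 with the replicate number as a block and 0.117 with that block and the trend removed.

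Assembly factors, which build the complexes without remaining in them, also had medians below 0, and their difference from the subunits was not tested. Medians were -0.24 for 14 factors of complex I, -0.32 for 6 of complex III, -0.27 for 22 of complex IV and -0.40 for 5 of ATP synthase, with 0 called in each list, although 2 factors of complex IV were called without the third control liver. With the length and GC trend removed, the medians were -0.21 for the factors of complex I, -0.20 for complex III, -0.11 for complex IV and -0.15 for ATP synthase, against -0.25, -0.30, -0.27 and -0.25 for the subunits of the same complexes. By the unadjusted rule 6 of 14, 2 of 6, 5 of 22 and 1 of 5 were lower and 0 higher. Over all tested genes, 7.98% were lower by that rule. Among the most abundant, Ndufaf2, a complex I factor, stood at 20.7, 22.4 and 24.9 FPKM in the knockout livers, against 27.8, 36.2 and 38.3 FPKM in the control livers (log2 fold change -0.56), and Uqcc2, a complex III factor, at 42.04, 34.1 and 46.4 FPKM in the knockout livers, against 53.3, 66.9 and 79.1 FPKM in the control livers (log2 fold change -0.68), both without overlap. Cox16 and Cox17, complex IV factors, had log2 fold changes of -0.34 and -0.51, Fmc1 and Tmem242, ATP synthase factors, -0.48 and -0.44, and Ecsit and Uqcc1 -0.40 and -0.15. Pet100 and Cox19, likewise complex IV factors, were chosen after their values were seen. Pet100 stood at 15.1, 13.2 and 14.2 FPKM in the knockout livers, against 28.6, 24.3 and 35.6 FPKM in the control livers, without overlap (log2 fold change -0.996, limma adjusted p 0.0807). Cox19 stood at 26.5, 22.1 and 23.4 FPKM in the knockout livers, against 40.7, 45.2 and 34.9 FPKM in the control livers, also without overlap (log2 fold change -0.72, limma adjusted p 0.134).

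Nuclear regulators of respiratory genes, among them Nrf1, Gabpa, Esrra, Yy1 and the coactivator Ppargc1a, had a median log2 fold change of -0.09 over 12 genes, with 0 called and 0 at an unadjusted p under 0.05. Tfam, the packaging and transcription factor of mitochondrial DNA, stood at 26.5, 30.3 and 29.7 FPKM in the knockout livers, against 25.3, 19.00 and 33.4 FPKM in the control livers (log2 fold change 0.18), and Yy1 at 21.1, 15.7 and 18.3 FPKM in the knockout livers, against 19.02, 21.96 and 15.7 FPKM in the control livers (log2 fold change -0.04). Both overlapped between the groups. Gabpa and Nrf1, named after their values were seen, did not. Of the 12 regulators, 1 was thus separated upward and 1 downward, against 1334 and 1365 of all 11810 tested genes. Gabpa, a subunit of the GA-binding protein, stood at 11.7, 11.8 and 11.5 FPKM in the knockout livers, against 10.4, 9.697 and 9.06 FPKM in the control livers (log2 fold change 0.25, limma adjusted p 0.418), so that every knockout liver lay above every control liver. Nrf1, nuclear respiratory factor 1, stood at 3.89, 3.47 and 3.72 FPKM in the knockout livers, against 4.57, 4.31 and 4.09 FPKM in the control livers (log2 fold change -0.18, limma adjusted p 0.557), so that every knockout liver lay below every control liver. The citric acid cycle had a median of -0.16 over 13 genes and 0 called. Of the 13, 5 were lower by the unadjusted rule, against 7.98% of all tested genes. In 6 of them every knockout liver lay below every control liver, against 11.6% of all tested genes. There the most abundant, Fh1 (fumarase) and Suclg1 (succinate-CoA ligase), had log2 fold changes of -0.61 and -0.57. Carriers, import and membrane genes of mitochondria had a median of -0.26 over 18 genes and 0 called, 1 lower by the unadjusted rule and 7 lower without overlap, with -0.25 for Slc25a5, the ADP/ATP carrier, and 0.08 for the chaperonin Hspd1.

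Markers of cell types also differed between libraries. Summed over 8 hepatocyte markers the level was 43136, 30662 and 51580 FPKM in the knockout livers, against 57871, 69708 and 60286 FPKM in the control livers, lowest in the second knockout liver. Alb alone made up most of each sum, at 23233, 17009 and 34609 FPKM in the knockout livers. In the control livers Alb stood at 37008, 43645 and 42011 FPKM. Of the 8 markers, 7 had fold changes below 0, with a median of -0.40, and 0 were called. Tat was the 1 above 0 (0.21), and Cps1 stood at -0.008. Summed over 12 macrophage markers it was 239, 480 and 219 FPKM in the knockout livers, against 131, 112 and 278 FPKM in the control livers, highest in the second knockout liver. All 12 macrophage fold changes were above 0, with a median of 0.63, and 1 was called, Mpeg1, at 58.2, 73.5 and 57.3 FPKM in the knockout livers, against 5.12, 7.12 and 17.7 FPKM in the control livers (limma adjusted p 0.0490). That call was lost without any 1 of the libraries other than the third control liver, at adjusted p-values between 0.124 and 0.234, and with all libraries at 0.0719 with the length and GC trend removed, 0.0581 with pseudocount 0.1, 0.133 with no filter and 0.0888 with the replicate block and the trend removed. Summed over 8 endothelial markers the level was 39.1, 81.5 and 45.4 FPKM in the knockout livers, against 56.2, 56.8 and 68.6 FPKM in the control livers, with a median log2 fold change of -0.06. The 8 stellate cell markers had a median of 0.31 and summed to 58.6, 140 and 93.1 FPKM in the knockout livers, against 59.5, 112 and 95.6 FPKM in the control livers. Of 6 cholangiocyte markers 4 were tested, with a median of 0.32 and sums of all 6 of 59.1, 63.1 and 64.0 FPKM in the knockout livers, against 33.8, 37.3 and 44.2 FPKM in the control livers, nearly all of it Spp1. Of 10 lymphocyte and neutrophil markers 3 were tested, with sums of all 10 of 3.60, 12.95 and 17.6 FPKM in the knockout livers, against 3.84, 2.29 and 48.3 FPKM in the control livers, and of 6 muscle markers only Des was tested, with Ckm and Myh4 at 0 in every library. Immediate-early genes, induced within minutes by stress and handling, summed over 15 genes to 119, 105 and 262 FPKM in the knockout livers, against 104, 130 and 895 FPKM in the control livers, so that the third control liver stood apart. The part of these differences between libraries in the subunits' levels was not tested. Without the third control liver the median of the 74 genes was -0.35, with 70 fold changes below 0 and 0 genes called.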

How the data were processed

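Poly(A) RNA of flash-frozen livers was sequenced from stranded Illumina libraries made from 1 µg of RNA, per the labels' protocols, and groups and replicate numbers came from the sample titles. Per the submitters' processing notes the build was GRCm38 (mm10), and the tools were Cuffdiff 2.2.1, STAR 2.4.2a, Trimmomatic, bcl2fastq 2.17.1.14 and Picard 1.119, with no role or order given. No source used here names the annotation, the handling of reads with several matches or the use of strand. The authors deposited FPKM for 48699 genes in each of 6 libraries, and 0 other columns of per-library values were present. The authors deposited, in a separate table, the FPKM of each group with a p-value and q-value per gene, and its log2 fold change column was not used, because a spreadsheet had damaged it. FPKM is scaled by length and library total: a loss of fragments that depends on length, or a few very abundant transcripts, moves the values of other genes.

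Each library was taken as 1 mouse, and nothing in the labels says more on their origin, so p-values measure the spread between these samples. FPKM values are not counts, and no count model was used. Limma 3.58.1 (R 4.3.3), with a mean-variance trend, was fitted to log2(FPKM + 1) of the 11810 genes averaging 0.5 FPKM or more, without a block, with Benjamini-Hochberg adjustment at 0.05. Fold changes on that scale understate changes of low genes. The fit was tested on simulated data with independent noise in each gene and changes larger than those of the subunit genes. Smaller changes shared by many genes were not simulated. Depth was read from the smallest FPKM steps of 269 to 298 genes per library. GENCODE M21 (GRCm38), which held 48343 of the identifiers, gave length and GC content. Promoters came from RefSeq. In 27 rows a symbol had become a date, and none of these was a subunit gene.

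The genes, lists and tests were chosen with earlier results of these data known. Named were, per complex, the 4 most abundant and the 3 lowest and 3 highest fold changes. Also named were the restricted paralogs, the subunit c genes and the deleted genes. From each other list the rule took the called genes or else the 2 most abundant. For most marker lists and the immediate-early genes, these are given only within sums. Others named are Cox7a2l, Atp5s and Atp5sl, and genes given as printed promoters, background or extremes. Alternatives were another pseudocount, other filters, other scalings, removal of the length and GC trend, library weights, a replicate block, and leaving out each library.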

Additional observations from a re-analysis of the deposited data

How the results depend on the processing

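With all alternatives (pseudocount 0.1, no filter or a filter of 2 FPKM, 3 other scalings, removal of the length and GC trend, library weights, the replicate block with and without that removal, and leaving out each library), 0 of the subunit genes were called in either direction. The medians of all subunit genes and of each complex stayed below 0. The lowest adjusted p of any subunit gene over these settings was 0.0543, under library weights. The median of all subunit genes ran from -0.66 to -0.26. Rescaling to a sum of 1e6 moved the median of all tested genes to 0.18, and the subunit genes' median of -0.26 was then -0.44 relative to it. Complex III stood at -0.30 under quantile normalization and at -0.30 after removal of the length and GC trend, with and without the replicate block, a shift larger than the spread between replicates. With that trend removed, complex I was -0.25, complex IV -0.27 and ATP synthase -0.25, shifts of over 1.5 times that lay within that spread. Lower subunit genes at an unadjusted p under 0.05 numbered 15 after rescaling (2.77% of all tested genes) and 21 after quantile normalization (7.35%). They numbered 13 with the trend removed (5.87%) and 12 with the block too (6.4%), against 33 (7.98%). Over all tested genes, calls were 13 higher with pseudocount 0.1, 0 higher and 2 lower with no filter, 53 higher after rescaling, 326 higher and 237 lower with library weights, and 6 higher and 7 lower with the replicate block and the length and GC trend removed. Leaving out 1 library gave 0 to 154 higher and 2 to 88 lower, most without the third control liver. The cause of these shifts was not tested.

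Of the named genes, 28 of the alternative values changed sign. Atp5a1 became 0.0340 after rescaling and 0.0885 after quantile normalization. Atp5g2 became 0.14 after rescaling, 0.14 after quantile normalization, 0.20 with the length and GC trend removed (with and without the block), 0.0607 with library weights and 0.13 without the third control liver. Atp5k became 0.00932 with the length and GC trend removed. Ndufs1 became 0.0547 after rescaling and 0.00012 with the length and GC trend removed. Ndufs5 became 0.13 after rescaling, 0.12 after quantile normalization, 0.22 with the length and GC trend removed and 0.0487 without the second knockout liver. Ndufv1 became 0.0307 after rescaling and 0.0075 after quantile normalization. Cox6b2 became -0.34 with pseudocount 0.1, -0.0201 after quantile normalization, -0.42 without the second knockout liver, -0.11 without the first control liver and -0.12 without the second. Ndufa4l2 became -0.10 with library weights, -0.02 without the third knockout liver and -0.0656 without the third control liver. Leaving out 1 library gave -0.209 to 0.13 for Atp5g2, -0.42 to 0.539 for Cox6b2, -0.0656 to 0.271 for Ndufa4l2 and -0.250 to 0.0487 for Ndufs5. Nr1h4 was no longer called without any 1 of the libraries other than the third control liver, at adjusted p-values between 0.0616 and 0.133, nor with no filter (0.0654) or with the block and the trend removed (0.0566).

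Same-numbered knockout and control livers deviated from their group means with correlations of 0.220, -0.0754 and 0.301, so the numbers were not taken as pairs, and the first and second knockout livers did not correlate best with their own number. With the replicate number as a block, 27 genes were called higher and 23 lower, 0 of them subunit genes, whose median remained -0.49. Summing repeated symbols was not run, since there were 0. Precision is limited by 3 mice a group, and for the restricted paralogs by few fragments.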
